A study of Mus musculus with 4 samples.

Results

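The genes described are 10 that break down heme or move, store or sense iron: Hmox1, Blvra, Blvrb, Fth1, Ftl1, Slc40a1, Tfrc, Slc11a1, Slc11a2 and Ireb2. They were chosen by symbol from the 31053 gene rows of 4 single-cell RNA sequencing (scRNA-Seq) libraries, and all 10 were found and had enough counts to be tested. The cells are bone marrow (BM) macrophages, grown in macrophage colony stimulating factor (M-CSF) from the marrow of male wild-type C57BL/6J mice aged 4 to 6 weeks. Efferocytic BM macrophages had been kept for 16 to 18 h with UV-killed, CFSE-labeled RM1 cells at a ratio of 1 to 1 and were sorted as F4/80+CFSE+, so that they carried the dye of the dead cells. RM1 is a mouse prostate cancer line, CFSE a fluorescent dye and F4/80 a surface protein of mouse macrophages. Non-efferocytic BM macrophages were sorted as F4/80+ from macrophages without apoptotic cells. Each of 2 experiments gave 1 library per group. If the non-efferocytic cells met no dead cells, contact with dead cells and their engulfment cannot be told apart in this design. Nor can mRNA of the macrophage be told from mRNA of the engulfed RM1 cell, since both are of mouse origin.

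Macrophages take up dying cells, and where these are red cells they free the iron of hemoglobin. Heme oxygenase opens the heme ring, which releases iron, carbon monoxide and biliverdin, and biliverdin reductase turns biliverdin into bilirubin. The iron is stored in ferritin, a shell of heavy and light chains, or leaves the cell through ferroportin. Iron regulatory proteins, encoded by Aco1 and Ireb2, bind hairpins in mRNA when iron is scarce, which blocks the translation of ferritin and ferroportin and stabilizes the mRNA of the transferrin receptor.

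These hairpins, the iron-responsive elements, are shown because they mark the members that the iron regulatory proteins can bind, in the 5′ UTR to block translation and in the 3′ UTR to stabilize the mRNA. A search of the GENCODE vM21 transcripts (GRCm38) for a hairpin with the loop CAGTGN found the element in 4 of the 10 members. Each line gives 29 bases, 5′ to 3′, with the 6 bases of the loop in capitals.
Fth1, 5′ UTR, chr19:9982732-9982760, plus strand: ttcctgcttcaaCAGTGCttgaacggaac
Ftl1, 5′ UTR, chr7:45459779-45459807, minus strand: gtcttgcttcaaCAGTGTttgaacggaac
Slc40a1, 5′ UTR, chr1:45925465-45925493, minus strand: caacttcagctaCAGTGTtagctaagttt
Tfrc, 3′ UTR, chr16:32631219-32631247, plus strand: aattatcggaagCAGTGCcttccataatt
Tfrc, 3′ UTR, chr16:32631598-32631626, plus strand: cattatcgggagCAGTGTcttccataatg
Tfrc, 3′ UTR, chr16:32631663-32631691, plus strand: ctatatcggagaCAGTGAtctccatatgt
Tfrc, 3′ UTR, chr16:32631710-32631738, plus strand: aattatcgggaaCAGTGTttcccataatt
The search asked for an unpaired C before the upper stem, all 5 base pairs of the upper stem and at least 4 pairs below the C, with G-T pairs allowed. Of 21899 genes with coding transcripts, 7 (0.0320%) held such a hairpin in the 5′ UTR and 16 (0.0731%) in the 3′ UTR. No match was found in the transcripts of the other 6 members, which says only that this pattern is not in the transcripts searched. The element of Ftl1 lies in 1 of its 2 coding transcripts, and those of Tfrc in 1 of 2.

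The cells kept (at least 200 genes, at least 1000 unique molecular identifiers (UMIs) and at most 10% mitochondrial UMIs) numbered 6695 to 13411 per library and held 101216659 to 155224183 UMIs. A count of 0 allows a level of up to 0.0193 to 0.0296 CPM (UMIs of a gene per 1e+06 UMIs), for counting error only. Efferocytic cells held more UMIs, with medians of 17171 and 17476 against 11146 and 9600 in non-efferocytic cells. Clusters that the markers did not name, with median depths of 1241.5 to 1425.5 UMIs, held 5.68% and 17.7% of the non-efferocytic cells. In the efferocytic libraries they held 4.41% and 3.66%. All 10 macrophage markers were detected in each library, and their sum was 39508 and 34100 CPM in non-efferocytic, against 31489 and 23883 CPM in efferocytic libraries. Markers of other cells moved with the groups: the 9 neutrophil-lineage markers summed to 3046 and 3339 CPM without and 953 and 705 CPM with engulfed cells, and the 6 fibroblast markers to 191 and 163 against 62.3 and 68.4 CPM. The 5 monocyte markers summed to 68.8 and 77.8 against 25.99 and 15.8 CPM. The 7 erythroid markers, among them hemoglobin genes, followed the experiment instead. They summed to 0.494 (non-efferocytic) and 0.272 CPM (efferocytic) in Experiment 1, and to 48.7 and 51.8 CPM in Experiment 2. An unnamed cluster of Experiment 2, with 1666 non-efferocytic and 228 efferocytic cells, had Hbb-bs, Hba-a1, Krt18 and Igkc among its leading genes. Of 6 epithelial markers, listed as candidates for RM1 cells, the sum was at most 0.534 CPM in Experiment 1 and 8.49 to 10.4 CPM in Experiment 2. In Experiment 2 the sum was higher in the non-efferocytic library (10.4 against 8.49 CPM). The study's list of resources describes RM1 as fibroblast-like, so these markers do not show how much RM1 RNA was present. Refits over macrophage-like clusters alone, and over cells with no UMI of the fibroblast or epithelial markers, address a part of these differences in markers. The latter gave log2 fold changes of -0.80 for Slc40a1, 0.55 for Tfrc, 0.39 for Hmox1 and -0.53 for Blvrb. Blvra was not called there (0.27, edgeR, adjusted p = 0.0522). Otherwise the part of these cells in the results below was not tested. Between 14 and 23 cell barcodes were shared by pairs of libraries, and 118 by both libraries of Experiment 2.

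Efferocytic BM macrophages held less ferroportin mRNA and more transferrin receptor mRNA, as shares of their RNA, together with more Hmox1 and Blvra and less Blvrb. In all, 3 of the 10 members were called higher (Tfrc, Hmox1 and Blvra) and 2 lower (Slc40a1 and Blvrb), at an adjusted p under 0.05 in edgeR's quasi-likelihood test with the experiment as a block. Among all 13869 genes tested, 19.9% were called higher, 19.0% lower and 38.9% in either direction, so the 5 members called lie near the background, and their number is not a result about the members as a set. The median log2 fold change of the members was 0.20 and that of all genes -0.018. Values are CPM, with the mean ± SD of 2 libraries, and positive log2 fold changes stand for more mRNA in efferocytic BM macrophages. CPM and TMM-scaled values describe what part of the RNA a gene takes up, not how much of it a cell holds. TMM places the log2 fold changes about 0.11 above those of the library totals, for which the median of all genes was -0.12. With library totals 1847 genes were called higher and 3700 lower, against 2761 and 2636 with TMM. The study calls the experiments independent, but the labels do not tie the libraries to animals, so the spread behind the p-values may be technical. The fit had 1 residual degree of freedom and a prior of 6.99. That spread therefore came mostly from the trend over all genes and little from a gene's own libraries.

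**Figure D1:**
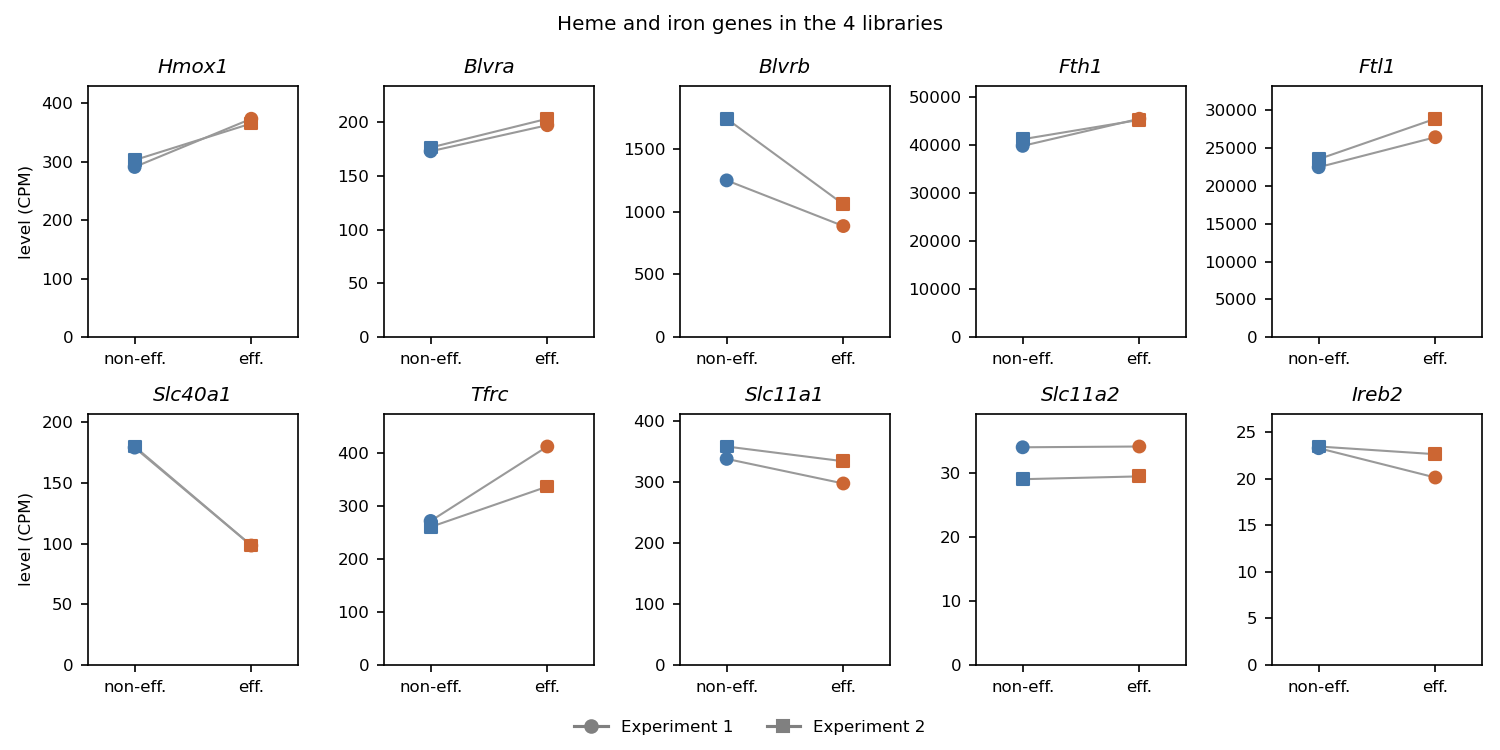
Level of each heme and iron gene in CPM (vertical axes, each from 0) in non-efferocytic (blue) and efferocytic (orange) libraries, with lines joining the libraries of an experiment (circles, Experiment 1, and squares, Experiment 2). Slc40a1 falls from 179 and 180 CPM to 98.5 and 98.6 CPM, while Slc11a2 differs more between the experiments than between the groups.

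Hmox1 (ENSMUSG00000005413, chromosome 8, 75093621 to 75100589) encodes the inducible heme oxygenase, the enzyme that opens the heme ring. Its level was 291 and 303 CPM in the non-efferocytic libraries of Experiments 1 and 2, and 374 and 366 CPM in the efferocytic libraries. The groups did not overlap, and the difference of the means (297 ± 8.35 and 370 ± 5.69 CPM) was larger than the spread between libraries. With 2 libraries per group, a lack of overlap says little here and below. The groups of Slc11a1 (log2 fold change -0.035) and Ireb2 (-0.023) did not overlap either, and its rate over all genes was not counted. The log2 fold change was 0.42 (standard error 0.101, edgeR, adjusted p = 0.0133). When 10% of each library's UMIs were taken off in proportion to its empty barcodes, a rough correction for free RNA, Hmox1 no longer passed (0.41, edgeR, adjusted p = 0.0585). Hmox2, the constitutive heme oxygenase, had 144 and 143 CPM without and 143 and 140 CPM with engulfed cells, and was not called (0.088, edgeR, adjusted p = 0.447).

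The enzymes of the next step went opposite ways. Blvra (ENSMUSG00000001999, chromosome 2, 127070665 to 127097084), the main biliverdin reductase of adult tissue, had 173 and 177 CPM without and 197 and 203 CPM with engulfed cells. The groups did not overlap, but the difference was small, at 0.30 on the log2 scale (standard error 0.0889, edgeR, adjusted p = 0.0289). Blvra was the least firm of the calls, since it was lost without the block (adjusted p = 0.0642), with library totals (0.20), over macrophage-like clusters alone (0.26, adjusted p = 0.0501) and after removal of free RNA (adjusted p = 0.0829), among other settings. Blvrb (ENSMUSG00000040466, chromosome 7, 27447978 to 27466144) encodes flavin reductase, which reduces flavins and a fetal form of biliverdin. Without engulfed cells Blvrb was at 1248 and 1739 CPM, and with them at 885 and 1058 CPM. Experiment 2 was higher than Experiment 1 in both groups, and the lowest non-efferocytic library still lay above both efferocytic ones. Blvrb fell by 0.50 on the log2 scale (standard error 0.132, edgeR, adjusted p = 0.0199), but the call was lost without the block (-0.52, adjusted p = 0.109) and after removal of free RNA (-0.52, adjusted p = 0.0590), where the difference was as large. With a library left out it ran from -0.73 (without the non-efferocytic library of Experiment 1) to -0.25 (without that of Experiment 2).

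Ferritin took up a large part of the RNA in every library. Fth1 (ENSMUSG00000024661, chromosome 19, 9980598 to 9985098), the heavy chain with the ferroxidase site, went from 39824 and 41209 CPM in non-efferocytic to 45467 and 45233 CPM in efferocytic libraries. Ftl1 (ENSMUSG00000050708, chromosome 7, 45457944 to 45459884), the light chain on which the iron core forms, had 22477 and 23544 CPM against 26442 and 28883 CPM. Together the chains made up 6.23% and 6.48% of all UMIs in non-efferocytic and 7.19% and 7.41% in efferocytic cells. Neither pair of groups overlapped, yet neither chain passed the test: the log2 fold change was 0.27 for Fth1 (standard error 0.256, edgeR, adjusted p = 0.430) and 0.37 for Ftl1 (standard error 0.227, edgeR, adjusted p = 0.225). The log2 CPM ratios of Experiments 1 and 2 were close, with 0.19 and 0.13 for Fth1 and 0.23 and 0.29 for Ftl1. As for every gene, the spread in the test came mostly from the trend over all genes. DESeq2 called both higher (adjusted p = 0.0406 for Fth1 and 0.00206 for Ftl1), and edgeR with library totals called Ftl1 (0.26, adjusted p = 0.0311). The ratio of Fth1 to Ftl1 UMIs was 1.77 and 1.75 in non-efferocytic and 1.72 and 1.57 in efferocytic libraries. Both genes have near-identical copies in the genome, and reads that match several copies can be lost or split, so their levels are uncertain. Ftl1-ps1, a copy that the files list on its own, held between 0.655% and 1.08% as many UMIs as Ftl1.

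The mRNA of the iron exporter had the lowest adjusted p of the members with TMM and the block. Slc40a1 (ENSMUSG00000025993, chromosome 1, 45908068 to 45926523) encodes ferroportin, the only known iron exporter of mammalian cells. Its level was 179 and 180 CPM in the non-efferocytic libraries and 98.5 and 98.6 CPM in the efferocytic libraries. The libraries of a group lay within 1 CPM of each other in both groups, and the gap between the groups was far larger (180 ± 0.637 against 98.5 ± 0.0809 CPM). Counting error alone, on 12308 and 15302 UMIs in the efferocytic libraries, is larger than an SD of 0.0809 CPM. So close a match is therefore no measure of precision. Slc40a1 fell by 0.76 on the log2 scale (standard error 0.0858, edgeR, adjusted p = 0.000546). Over macrophage-like clusters alone it fell by 0.83 (edgeR, adjusted p = 0.000469). To compare cells at 1 depth, those with at least 5000 UMIs (7181 of 8280 and 10007 of 13411 non-efferocytic, 6151 of 6695 and 7903 of 8408 efferocytic) were thinned to that number and the others left out. Of the thinned cells, 48.6% and 48.2% of the non-efferocytic held a Slc40a1 UMI, against 34.3% and 32.8% of the efferocytic. Over all cells kept and without thinning these shares were 64.8% and 57.8% against 59.3% and 56.6%. Over macrophage-like clusters alone, which leaves out the unnamed clusters of low depth, they were 67.0% and 67.4% against 61.3% and 59.1%. In the T or NK cell-like cells of Experiment 2, which should lack the gene and have median depths of 1503 and 1450 UMIs, 0 of 72 non-efferocytic cells held one, which allows a share of up to 4.17% by the floor of 3 counts and 5.07% by the Wilson interval, and 1.56% of 64 efferocytic cells did (Wilson interval 0.276% to 8.33%). Neutrophil-lineage-like cells also held the mRNA, at 138 and 115 CPM without and 82.5 and 92.2 CPM with engulfed cells, over 23 to 118 cells. In these clusters, 9 (Experiment 1) and 8 (Experiment 2) of the 10 macrophage markers were each found in at least 25% of the cells. Whether macrophage RNA adds to these levels was not tested.

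Among the importers, the receptor for transferrin-bound iron rose and the metal transporters of the SLC11 family were not called. Tfrc (ENSMUSG00000022797, chromosome 16, 32608920 to 32632794), the transferrin receptor, went from 272 and 261 CPM in non-efferocytic to 413 and 337 CPM in efferocytic libraries. The efferocytic libraries differed from each other by more than the non-efferocytic ones did, but both lay above the latter, and the log2 fold change was 0.59 (standard error 0.111, edgeR, adjusted p = 0.00471). Among the cells that could be thinned to 5000 UMIs, 45.7% and 44.7% of the non-efferocytic held a Tfrc UMI, against 61.0% and 54.5% of the efferocytic. Over all cells kept and without thinning, 60.5% and 55.2% of non-efferocytic and 79.6% and 73.9% of efferocytic cells did. The T or NK cell-like cells of Experiment 2, at median depths of only 1503 and 1450 UMIs, showed 4.17% and 10.9%. Cells of the unnamed clusters, also of low depth, showed 28.1% and 28.2% (non-efferocytic) and 34.9% and 29.5% (efferocytic). Depth therefore limits a comparison of these shares with those of all cells. Over macrophage-like clusters alone the shares were 62.3% and 63.0% against 81.8% and 76.5%. The ratio of Tfrc to Slc40a1 UMIs within a library went from 1.52 and 1.45 to 4.19 and 3.42.
Slc11a2 (ENSMUSG00000023030, chromosome 15, 100387898 to 100425072), the divalent metal transporter that passes iron from the endosome to the cytosol, had 34.02 and 29.03 CPM without and 34.1 and 29.5 CPM with engulfed cells. Its level followed the experiment and not the group (0.12, standard error 0.0751, edgeR, adjusted p = 0.234). Counts per gene do not separate its isoforms with and without an iron-responsive element. Slc11a1 (ENSMUSG00000026177, chromosome 1, 74375195 to 74386062), which pumps metal ions out of the phagosome of macrophages, had 337 and 358 CPM against 297 and 333 CPM. Those groups came close without overlap, and the log2 fold change was -0.035 (standard error 0.0963, edgeR, adjusted p = 0.795).

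Ireb2 (ENSMUSG00000032293, chromosome 9, 54863789 to 54912530) encodes iron regulatory protein 2, which binds the hairpins shown above and is controlled mainly through the stability of the protein. Its 23.3 and 23.5 CPM in non-efferocytic libraries stood against 20.1 and 22.7 CPM in efferocytic ones (log2 fold change -0.023, standard error 0.0789, edgeR, adjusted p = 0.834). Of the 4 members in which the search found an iron-responsive element, the mRNA of Slc40a1 fell, that of Tfrc rose and the ferritin chains were not called. Whether the proteins followed was not measured here.

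Counted as UMIs per cell, these mRNAs gave another picture than as shares of RNA. UMIs per cell also depend on capture and sequencing of each library, which were not examined, so they are not amounts of mRNA in a cell. Since efferocytic cells held more UMIs, scaling to UMIs per cell put the median over all genes at 0.60 (log2), and the members are best read against it. Hmox1 went from 3.56 and 3.13 UMIs per cell to 6.98 and 6.75, and Tfrc from 3.33 and 2.69 to 7.71 and 6.22. Fth1 went from 487 and 425 to 849 and 835 UMIs per cell. Slc40a1 alone among the members had a lower value with engulfed cells in both experiments, with 2.19 and 1.86 against 1.84 and 1.82 UMIs per cell, and was not called on this scale (-0.14, edgeR, adjusted p = 0.579). Blvrb changed sign, from 15.3 and 17.9 to 16.5 and 19.5 UMIs per cell (0.12, edgeR, adjusted p = 0.405). These averages take in the unnamed clusters of low depth, with 17.7% of the non-efferocytic and 3.66% of the efferocytic cells of Experiment 2. Their part in the values per cell, such as the sign of Blvrb, was not tested. On this scale edgeR called 7 members higher and 0 lower (8 at an unadjusted p under 0.05), while DESeq2, on the scale of shares, called 5 higher and 2 lower. Among all genes tested, DESeq2 called 1971 higher and 1418 lower, and 6921 were called higher and 586 lower with UMIs per cell, so the direction of the members follows that of all genes. The calls on this scale have less standing, since the fit took the spread of every gene from the trend over all genes and none from its own libraries, which makes its p-values too small, and since the number of cells scales a whole library by 1 value. Hmox1 (1.04) and Tfrc (1.21) stood above the median of all genes and Blvrb and Slc40a1 below it. The scaling shifts all genes by nearly the same value, so these positions repeat those with TMM and add no evidence.

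**Figure D2:**
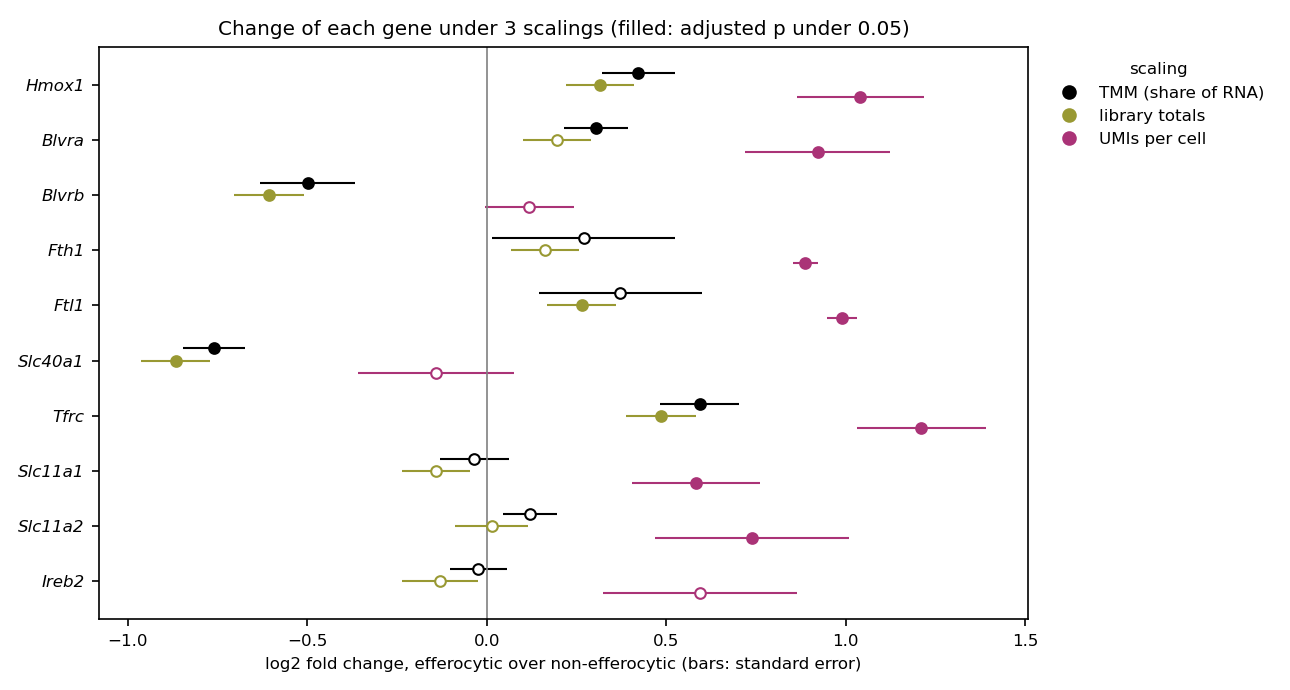
Log2 fold change of each heme and iron gene (horizontal axis, bars show the standard error) with TMM, with library totals and with UMIs per cell; filled points have an adjusted p under 0.05 in edgeR, which for UMIs per cell used no spread of the gene itself. Tfrc is higher at 0.59, 0.49 and 1.21, while Blvrb goes from -0.50 with TMM to 0.12 with UMIs per cell.

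Each group has only 2 libraries. When 1 is left out, its group keeps a single library that is assumed to vary like the other group, and the fit has 1 residual degree of freedom, so these calls are weak evidence in either direction. When a library was left out, and with it the block, Slc40a1 ran from -0.79 to -0.72 and Tfrc from 0.41 to 0.78. Slc40a1 was then called without the efferocytic library of Experiment 1, and Slc40a1 and Tfrc without that of Experiment 2. Without the non-efferocytic library of Experiment 1 or of Experiment 2, edgeR called 0 members, with 4 and 3 at an unadjusted p under 0.05. These fits called only 2 of 14207 and 0 of 14036 genes in all, so they say nothing about the members. With all 4 libraries and no block it called Hmox1, Slc40a1 and Tfrc.

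Macrophages of 1 library differed among themselves in these genes. The cells of each experiment were clustered without the members and the listed heme and iron genes. The levels below therefore did not shape the clusters, although the genes that did can move with them. Trf, the transferrin gene, was not left out, since the list gave it as Tf. No test is given for clusters, and ranks among clusters refer to the macrophage-like ones with at least 50 cells in a library. In every library, Fth1 was highest in a small cluster in which Ero1l, Asns and Phgdh, known from the response to cell stress and amino acid shortage, were among the leading genes, with 74411 to 76321 CPM. The lowest level in any macrophage-like cluster of a library was 31051 to 38389 CPM. The 4 libraries differed little in that cluster, which had 140 and 201 non-efferocytic and 319 and 332 efferocytic cells, and the Fth1 to Ftl1 ratio was 2.45 to 2.78 there. Hmox1 was highest in the same cluster in every library, with 586 and 523 CPM without and 660 and 565 CPM with engulfed cells. Blvrb had its lowest level there in each of the 4 libraries, with 624 to 1241 CPM.

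Among the macrophage-like clusters, Slc40a1 was highest in the one led by Hpgd, Ighm and Gpr34, which held 4418 and 5622 of the non-efferocytic but only 291 and 86 of the efferocytic cells. There it reached 251 and 265 CPM in the former and 205 and 199 CPM in the latter. In the Ero1l and Asns cluster Slc40a1 was at 62.6 and 71.2 CPM against 53.0 and 42.1 CPM. The range over the macrophage-like clusters of a library was 3.71-fold to 4.73-fold for Slc40a1, 2.58-fold to 3.50-fold for Hmox1 and 1.17-fold to 1.44-fold for Ftl1. A cluster of Experiment 2 led by MHC class II genes and Ccr2, with 500 non-efferocytic cells, had a Tfrc level of 39.5 CPM, the lowest of any macrophage-like cluster, and a Hmox1 level of 172 CPM. That cluster was left out of the macrophage-like comparison, since Ccr2, a monocyte marker, is among its leading genes. Among other cells, the neutrophil-lineage-like ones had Fth1 at 5737 to 11419 CPM and the fibroblast-like cells at 7810 to 17687 CPM. Most macrophage markers were found in these clusters too, with 10 (Experiment 1) and 9 (Experiment 2) of 10 in the fibroblast-like ones. The part of macrophage RNA in these levels was not tested.

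**Figure D3:**
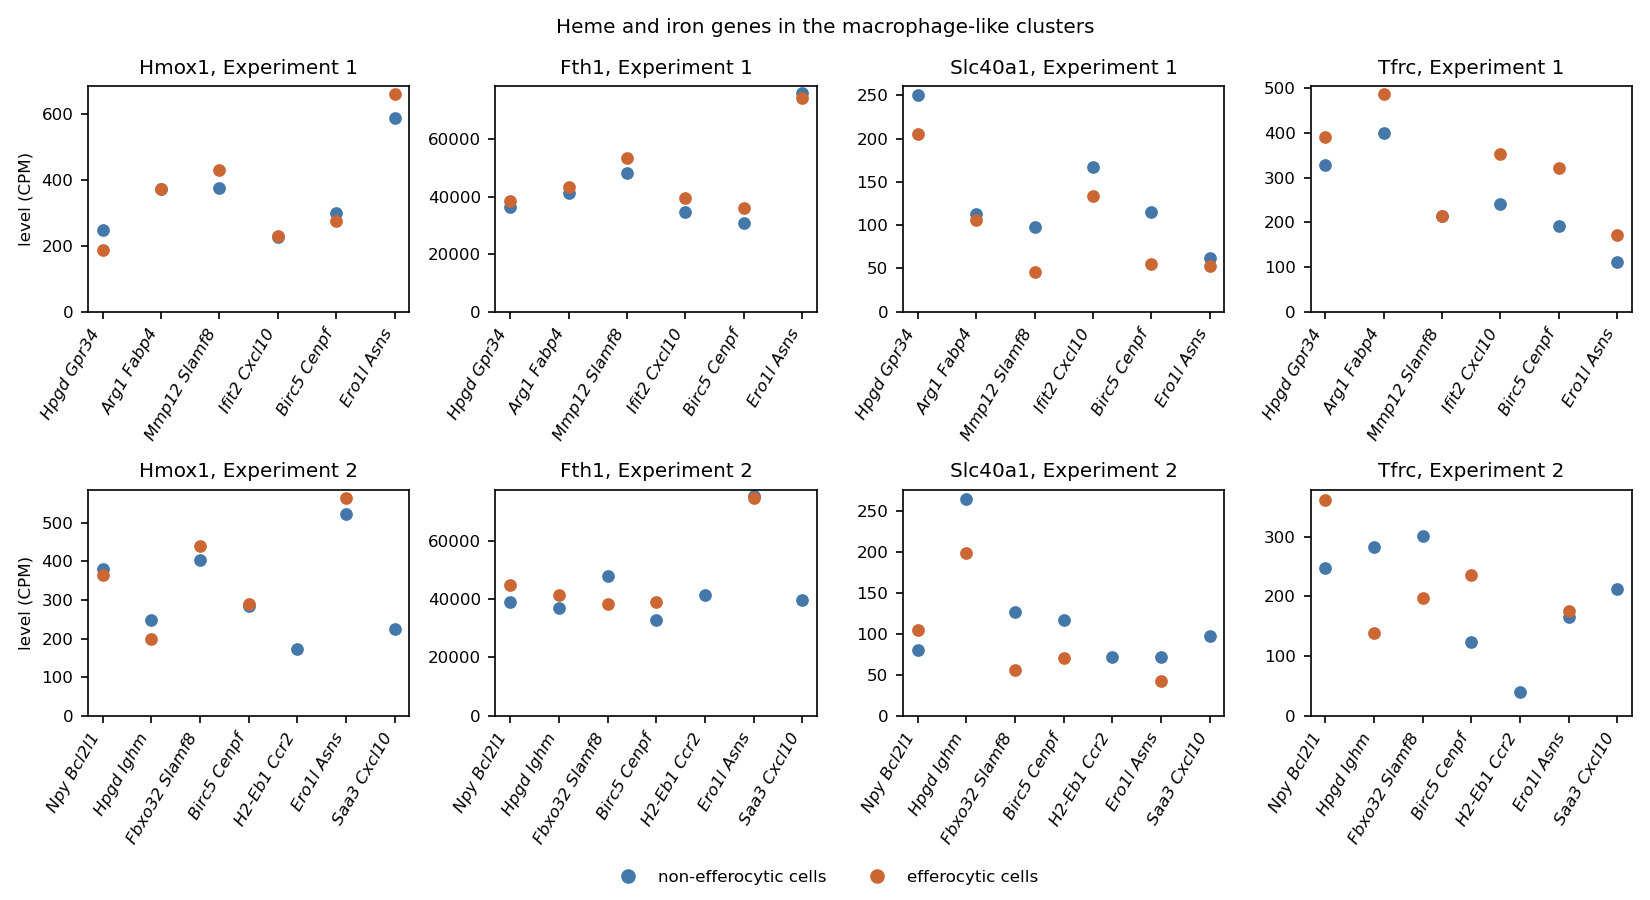
Level of Hmox1, Fth1, Slc40a1 and Tfrc in CPM (vertical axes, from 0) in the macrophage-like clusters of Experiment 1 (top) and Experiment 2 (bottom), each named by leading genes, in non-efferocytic (blue) and efferocytic (orange) cells; a point needs at least 50 cells. The Ero1l and Asns cluster holds the highest Fth1 in all 4 libraries, from 74411 to 76321 CPM, and the Hpgd cluster the highest Slc40a1.

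Within clusters that held at least 50 cells of both libraries (6 in Experiment 1 and 5 in Experiment 2), the members did not all keep the difference seen over all cells. Several of these clusters came almost wholly from 1 of the libraries, and cluster and library cannot be told apart there. Blvrb was lower in efferocytic cells in 6 of 6 and 5 of 5 clusters, with median log2 CPM ratios of -0.44 and -0.66. Slc40a1 was lower in 6 of 6 and 4 of 5, with medians of -0.30 and -0.74. In the clusters that held the largest number of efferocytic cells it did not fall by much or at all, with 113 CPM in 266 non-efferocytic against 106 CPM in 4396 efferocytic cells in Experiment 1 (-0.085), and 80.9 CPM in 198 against 105 CPM in 6868 cells in Experiment 2 (0.37). Ftl1 was higher in 6 of 6 and 5 of 5, with medians of 0.14 and 0.19, while Fth1 was higher in 5 of 6 and 3 of 5. Tfrc was higher in 6 of 6 clusters of Experiment 1 (median 0.42) and in 3 of 5 of Experiment 2 (median 0.087). Hmox1 was higher in 4 of 6 and 3 of 5 clusters, with medians of 0.011 and 0.032, where its ratios over all cells were 0.36 and 0.27. The largest efferocytic clusters, with 4396 and 6868 cells, had Hmox1 at 373 and 365 CPM, and the few non-efferocytic cells in them, 266 and 198, had 372 and 380 CPM. In the Hpgd clusters, with 4418 and 5622 non-efferocytic cells, it was 247 CPM in non-efferocytic cells of both experiments. The 291 and 86 efferocytic cells there had 189 and 199 CPM (log2 CPM ratios of -0.39 and -0.31).

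From cell to cell, the ferritin chains varied within a narrow band. Over the macrophage-like cells of a library, the level of Fth1 at the 90th percentile was 2.58 to 2.79 times that at the 10th, and for Ftl1 the ratio was 2.25 to 2.64. Tfrc spread widely: its median was 102 and 107 CPM in non-efferocytic, against 233 and 160 CPM in efferocytic cells, while its 90th percentile was 1024 and 1047 against 1449 and 1073 CPM. Among cells of at least 5000 UMIs, Fth1 and Ftl1 had Pearson correlations of 0.44 to 0.53 within the 4 libraries, over 6111 to 9362 cells that share the library and the depth of each cell.

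Over the 29 sums of cells per cluster and library with at least 100 cells, the genes most like Hmox1 among 7217 genes were Prdx1, Cstb, Chmp3, Anxa4 and Clec4d (Pearson r from 0.90 to 0.92 on log2(CPM + 1)). Those most like Slc40a1 were Ip6k1, Samd4, Ccdc152, Fgd2 and Rnf145 (0.87 to 0.88). These sums share libraries and clusters, and the values are given as a description.

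Around the members, 3 of 10 genes of heme transport and uptake that could be tested were higher and 1 lower (median log2 fold change 0.21). Flvcr1, an exporter of heme, went from 35.3 and 40.7 to 64.2 and 71.0 CPM (0.94, edgeR, adjusted p = 0.000158). Abcb6, a transporter of porphyrins, went from 7.005 and 6.94 to 10.2 and 13.3 CPM (0.85, edgeR, adjusted p = 0.00100), and Lrp1, the receptor for hemopexin-bound heme, from 298 and 267 to 381 and 351 CPM (0.48, edgeR, adjusted p = 0.00612). Cd163, the receptor for hemoglobin and haptoglobin, was scarce and lower, at 1.22 and 0.997 against 0.256 and 0.509 CPM (-1.43, edgeR, adjusted p = 0.00783), and was not called without the block (adjusted p = 0.0507). Slc48a1, which passes heme from the phagolysosome to the cytosol, was not called (0.19, edgeR, adjusted p = 0.123).

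In heme synthesis, 3 of 8 genes were higher and 1 lower (median 0.14), against 2 and 0 without the block and 1 and 0 after removal of free RNA. Over all genes, calls fell from 2761 and 2636 to 1285 and 1073 without the block and to 1324 and 1015 after removal of free RNA. Fewer calls in a list under these settings are therefore not a result about the list. Alas1, which encodes the first and rate-limiting enzyme, fell from 99.8 and 93.4 to 75.04 and 60.3 CPM (-0.41, edgeR, adjusted p = 0.0108), a call lost without the block (adjusted p = 0.108). Alad, the enzyme of the second step, rose from 11.3 and 11.04 to 12.9 and 15.0 CPM (0.42, edgeR, adjusted p = 0.00892), and Cpox passed by little (0.27, adjusted p = 0.0450) and not without the block (adjusted p = 0.103) or with library totals (0.17, adjusted p = 0.281). Of 12 genes of iron-sulfur cluster assembly, 5 were higher and 1 lower (median 0.21), against 2 and 0 without the block and 2 and 1 with library totals. The higher ones included Glrx5 (0.42, edgeR, adjusted p = 0.00499) and Fdx1 (0.33), and the lower one was the co-chaperone Hscb (-0.36). Without the block Fdx1 and Hscb were not called (adjusted p = 0.108 and 0.148).

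Of 12 other genes of iron transport and storage that could be tested, 5 were higher and 3 lower (median 0.12), against 2 and 3 without the block and 2 and 4 with library totals. Steap3, which reduces iron in the endosome after uptake through the transferrin receptor, went from 24.6 and 25.5 to 42.5 and 43.6 CPM (0.89, edgeR, adjusted p = 0.000174). Mcoln1 (0.53), a channel that lets iron out of the lysosome, and Slc39a8 (0.45), a metal importer, were higher too, as was Ncoa4 (0.29, edgeR, adjusted p = 0.0330), the receptor that carries ferritin to the lysosome. Ncoa4 and Slc39a8 were not called without the block (adjusted p = 0.0827 and 0.0840) or with library totals (adjusted p = 0.136 and 0.0700). Hfe, a partner of the transferrin receptor, fell from 65.3 and 63.9 to 35.1 and 32.5 CPM (-0.83, edgeR, adjusted p = 0.000268). Lcn2, a siderophore-binding protein of neutrophils and macrophages, fell from 92.9 and 99.5 to 26.5 and 14.2 CPM (-2.20), and the neutrophil-lineage markers fell with it. Lcn2 was among the leading genes of the neutrophil-lineage-like clusters of both experiments. Over macrophage-like clusters alone it was at -3.45 (standard error 0.473, edgeR, adjusted p = 0.00147). Free RNA of other cells can remain there, and the part of neutrophil-lineage cells was not tested. Cp and Trf were singled out after their values were seen. Cp, which encodes ceruloplasmin, the ferroxidase that works with ferroportin, was at 3.17 and 2.90 against 0.248 and 0.309 CPM (-3.33, edgeR, adjusted p = 5.08e-05), and at -4.77 over macrophage-like clusters alone. Trf, which encodes transferrin, was at 331 and 238 against 118 and 63.2 CPM (-1.60, edgeR, adjusted p = 0.000141). It was among the leading genes of the Hpgd cluster of Experiment 2, which held 5622 non-efferocytic and 86 efferocytic cells.

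Among 12 regulators tested, 3 were higher and 2 lower (median 0.14), against 2 and 2 without the block and 2 and 4 with library totals. Bach1, the heme-sensing repressor of Hmox1, fell from 79.5 and 76.6 to 58.2 and 57.1 CPM (-0.33, edgeR, adjusted p = 0.0117). Aco1, the gene for iron regulatory protein 1, rose (0.33, edgeR, adjusted p = 0.00970), but was not called without the block (adjusted p = 0.0613) or with library totals (0.23, adjusted p = 0.0740). Epas1, which encodes HIF-2α, rose from 16.3 and 14.1 to 41.2 and 47.9 CPM (1.66, edgeR, adjusted p = 5.08e-05), and Atf1 rose by less (0.64). By quantitative PCR of unsorted co-cultures, the study found a small decrease of Epas1 mRNA, the reverse of its own single-cell result. Spic, a transcription factor of iron-recycling macrophages, was at 1.156 and 1.149 against 0.248 and 0.148 CPM (-2.46, edgeR, adjusted p = 0.000544) and was named after its values were seen. Nfe2l2, which encodes the activator NRF2, was not called (0.023, edgeR, adjusted p = 0.860). Of 10 NRF2 targets outside heme and iron handling, 0 were called higher and 2 lower (edgeR, median -0.054), Slc7a11 (-0.41) and Gclm (-0.32). Both calls were lost without the block (adjusted p = 0.322 and 0.225), while library totals gave 1 higher and 4 lower. With UMIs per cell, where the median of all genes was 0.60, higher genes outnumbered lower ones in each of the 6 lists, with 6 higher and 0 lower in heme synthesis, 8 and 1 in heme transport, 9 and 2 in other iron genes, 11 and 0 in iron-sulfur cluster assembly, 8 and 1 among regulators and 5 and 0 among NRF2 targets. On that scale Alas1 (0.20), Hscb (0.26), Bach1 (0.29), Gclm (0.30) and Slc7a11 (0.20) changed sign but stayed below the median of all genes. Their place relative to that median is fixed, since the scaling shifts all genes by nearly the same value. The shares of genes called with TMM, from 20% of the NRF2 targets to 66.7% of the other iron genes, lie on either side of the 38.9% of all genes.

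**Figure D4:**
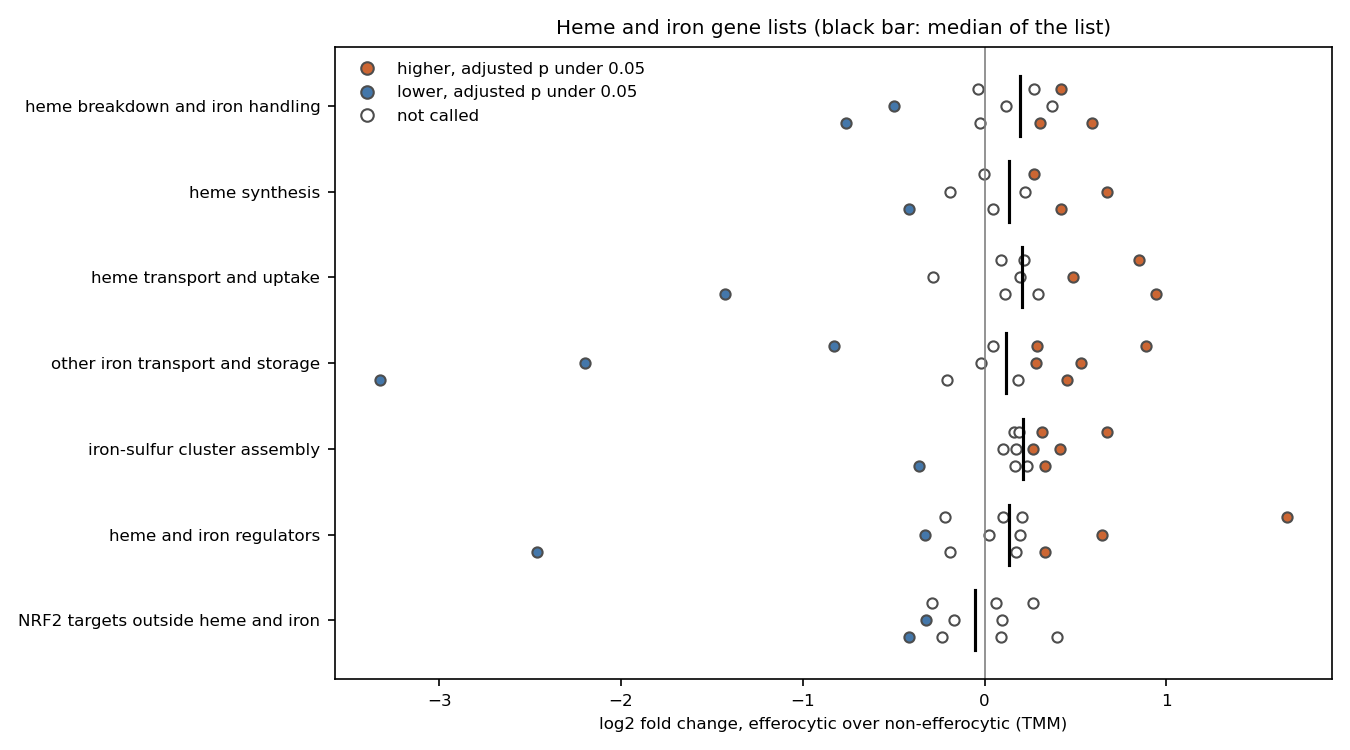
Log2 fold change with TMM (horizontal axis) of each tested gene in the lists around heme and iron, with a black bar at the median of a list, orange for higher and blue for lower at an adjusted p under 0.05 in edgeR. The medians lie between -0.054 and 0.21, and the genes farthest out are Cp at -3.33 and Epas1 at 1.66.

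RefSeq promoters (GRCm38.p6, 250 bases before to 50 after the start of a gene) were given for 7 of the members. The antioxidant response motif TGACNNNGC, sought on both strands, was in the promoter of Blvra and in none of the promoters of Blvrb, Fth1, Ftl1, Tfrc, Slc11a1 and Ireb2. It stood in 12.4% of all 32851 promoters. The E-box CACGTG was in none of those of the 7 members and in 7.15% of all. A match describes these letters in this window and is not evidence of binding.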

How the data were processed

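Sorted BM macrophages were profiled by scRNA-Seq with the 10X Genomics 3′ kit. The authors mapped reads to mm10 with Cell Ranger (3.0.0 in the submitters' processing notes, 3.1.0 in the file headers of Experiment 2) and deposited raw UMI counts for every barcode, without normalization. Strand handling is not given in the sources used here. The thresholds of the study's methods were applied to all deposited barcodes with no prior cell calling, so the cells kept are more than the study's, and counts were summed per library and tested on 13869 genes with edgeR 4.0.16 (TMM, filterByExpr, quasi-likelihood, experiment as a block) in R 4.3.3, calls at 0.05 after Benjamini-Hochberg adjustment. The experiment pairs the libraries by the labels, and libraries of an experiment deviated together from their group means (r = 0.786 over 7097 genes). DESeq2 1.42.0 was an alternative, as were other scalings, gene and cell filters, and each library left out. The fit left 1 residual degree of freedom and a prior of 6.99, against 22 with library totals and an infinite prior with UMIs per cell, whose p-values are therefore too small. The scripts were tested on simulated data. Clusters are from Leiden at resolution 0.5 on 20 components (leidenalg 0.10.2), named by markers; a macrophage-like cluster needed 8 of 10 markers, a limit set with the data in view. Scrublet's automatic threshold called 0 doublets, so doublets were kept.

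Named were all 10 members, per list at most the 3 largest increases and 3 largest decreases among called genes of at least 5 CPM, and Hmox2, Bach1, Nfe2l2, Aco1, Slc48a1, Ncoa4 and Cd163. Some genes that meet this rule are not reported here. The members and lists were chosen with earlier results of these data known. Tf of the list matched no row, and Trf is the symbol in the files. The authors' integration and tests on single cells were not repeated. Wilson intervals and the floor of 3 counts cover counting error only.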

Additional observations from a re-analysis of the deposited data

How the results depend on the processing

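The main count was 3 members higher and 2 lower, with 2761 and 2636 of all genes. In the fit with no replicate block, 2 were higher and 1 lower, with Blvra and Blvrb lost and no other member's call changed (1285 and 1073 of all genes). DESeq2 called 5 higher (1971 higher and 1418 lower of all genes), scaling to UMIs per cell 7 higher and 0 lower (edgeR, 6921 and 586 of all genes, 8 at an unadjusted p under 0.05; DESeq2 called 2 lower with its own size factors), where the fit used no spread of single genes so that its p-values are too small, and removal of 10% of the UMIs as free RNA left 1 higher and 1 lower (1324 and 1015 of all genes). Each library left out in turn, without the block, left 0 to 1 higher and 0 to 1 lower, with 3 to 7 members at an unadjusted p under 0.05. Without a non-efferocytic library, 0 and 2 or 0 and 0 of all genes were called. Under UMIs per cell Blvrb changed sign to 0.12, Slc11a1 to 0.58 and Ireb2 to 0.60, but the median of all genes moved to 0.60. Relative to it Blvrb was at -0.48 and Slc11a1 at -0.018, as with TMM (-0.48 and -0.017). A change of scaling shifts all genes by nearly the same value. The distance from the median was therefore bound to stay alike and is no separate evidence. The other alternatives on genes, cells and library totals gave 2 or 3 members higher and 2 lower, where library totals lost Blvra and gained Ftl1 (0.26). Removal of the 5% of cells with the highest doublet scores, of shared barcodes or of unnamed clusters, chosen after seeing the data, gave 3 and 2. Causes of the lost calls were not tested. With 2 libraries per group, calls of small differences such as that of Blvra (0.20 to 0.92 over the alternatives with all libraries) depend on these choices. Genes too scarce at this depth, such as Hamp and Flvcr2, were not tested.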
